A study of Rattus norvegicus with 6 samples.

Results

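Atf4 (ENSRNOG00000017801), Ddit3 (ENSRNOG00000006789), Trib3 (ENSRNOG00000007319), Asns (ENSRNOG00000007546) and Atf3 (ENSRNOG00000003745) are 5 genes of the integrated stress response, out of 22250 genes listed in the count tables. Trib3 was selected on its measured response, since it had the lowest fitted log2 fold change of all tested genes in this comparison, and the other 4 were taken as genes of the same pathway. The question was whether these 4 followed Trib3. The names belong to Ensembl identifiers of the rat assembly Rnor_6.0, while the tables and the RefSeq gene table used here do not pair them, so the names were not checked against an annotation.

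The libraries came from BRIN-BD11 cells, an insulin-secreting rat beta cell line made by fusing RINm5F insulinoma cells with islet cells of an NEDH rat, at passage 25. The 3 controls, labelled WT, received no histone deacetylase inhibitor. The 3 treated cultures received 5 µM MS-275 (entinostat), an inhibitor of class I histone deacetylases, for 16 h from 24 h after seeding, dissolved in 0.1% DMSO. The paper describes the controls as DMSO-treated and gives a different DMSO concentration, so the vehicle of the controls is known only from it. The labels do not say whether the replicates were separate cultures, so p-values measure the spread between these libraries, which may be technical. Beta cell markers were not checked here, because they could not be matched to the identifiers.

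The integrated stress response starts when kinases that sense endoplasmic reticulum stress, amino acid shortage, viral RNA or haem shortage phosphorylate the translation factor eIF2. General protein synthesis then slows while the mRNA of the transcription factor ATF4 is translated more, and ATF4 raises the transcription of genes for amino acid supply and stress adaptation. Beta cells depend on this control because of the load that insulin synthesis puts on the endoplasmic reticulum. Among the ATF4 targets, Ddit3 encodes CHOP, a transcription factor linked to cell death under lasting stress, and Atf3 encodes a further transcription factor of the same leucine zipper class. Asns encodes asparagine synthetase, and Trib3 encodes a pseudokinase that binds AKT and ATF4. The libraries measured mRNA, so the phosphorylation and translation steps were not seen.

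ATF4 and its partner C/EBP proteins are known to bind a composite element whose core was searched here as TGATGNAA, on both strands, in RefSeq promoters of 250 bases before to 50 bases after the start of the gene (assembly GRCr8, a later assembly than the one used for counting). Promoters of 4 of the 5 genes were in the table. The core was found once, in the Trib3 promoter, on the opposite strand between 21 and 14 bases before the start. It is held by 3.98% of all 33469 promoters. The cAMP response element TGACGTCA, which is its own reverse complement, was in none of the 4 and in 1.83% of all promoters. The promoters of Atf4, Ddit3 and Trib3 are shown because these are the genes whose fitted fold change passed -1 on the log2 scale, and capitals mark the match. They lie at chr7:113684431-113684730 (plus strand), chr7:65001445-65001744 (plus strand) and chr3:161275484-161275783 (minus strand).
Trib3: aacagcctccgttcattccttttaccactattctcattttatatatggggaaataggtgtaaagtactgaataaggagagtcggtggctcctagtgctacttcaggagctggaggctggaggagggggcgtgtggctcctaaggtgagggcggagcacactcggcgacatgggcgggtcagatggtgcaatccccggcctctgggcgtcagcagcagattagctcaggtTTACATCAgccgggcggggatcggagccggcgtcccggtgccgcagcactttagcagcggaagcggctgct
Ddit3: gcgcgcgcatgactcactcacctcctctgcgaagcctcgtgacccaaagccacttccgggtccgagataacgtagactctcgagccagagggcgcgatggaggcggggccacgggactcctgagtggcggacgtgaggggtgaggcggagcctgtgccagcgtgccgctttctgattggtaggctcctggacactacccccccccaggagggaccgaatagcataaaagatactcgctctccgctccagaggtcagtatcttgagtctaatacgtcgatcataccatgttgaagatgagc
Atf4: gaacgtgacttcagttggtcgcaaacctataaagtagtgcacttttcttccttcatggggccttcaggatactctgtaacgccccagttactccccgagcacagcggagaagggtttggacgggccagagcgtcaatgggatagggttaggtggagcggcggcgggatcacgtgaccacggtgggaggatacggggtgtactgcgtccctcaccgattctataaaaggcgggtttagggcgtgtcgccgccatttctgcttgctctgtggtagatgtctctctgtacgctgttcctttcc

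A match of these letters is a description of the sequence, and binding was not measured. The windows of Ddit3, Atf4 and Asns hold neither motif, and sequence outside the windows was not searched.

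The libraries held between 5230555 and 9172422 counts on genes, and 12596 genes, including all 5 described here, had enough counts for a test. TMM factors were between 0.976 and 1.03. Levels are given as CPM, which are counts relative to the library total, scaled by TMM. The test throughout was the quasi-likelihood test of edgeR, adjusted by Benjamini-Hochberg over all 12596 genes. A gene passed the test at an adjusted p under 0.05. Control replicate 1 stood apart from the other two controls in all 5 genes, so the fold changes are also given without it.

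Of the 4 genes other than Trib3, Atf4, Ddit3 and Asns were lower with MS-275 and Atf3 was not separated from the controls. The genes were chosen with earlier results of these data known, so the counts of genes below are a description. Across all tested genes 31.5% were lower and 32.1% were higher at the same limit, so a gene that passes it is common in this comparison. With a log2 fold change of -1 or lower in addition, Atf4 and Ddit3 remained, 2 of the 4, against 5.16% of all tested genes. Atf4 lay at this limit, with a log2 fold change of -0.99 with upper-quartile scaling, -0.99 without control replicate 2 and -0.98 without control replicate 3, where Ddit3 alone remained. Under 6 of the 12 alternatives 2 of the 4 genes, in place of 3, were lower at the adjusted p limit alone. All 3 MS-275 libraries lay below all 3 controls in Atf4, Ddit3 and Asns, as they did in 34.0% of the tested genes. They did so in Trib3 as well, which was chosen for its decrease, so its separation is a description only. The sizes ranged widely, with 47.2% of the control mean left for Atf4, 27.7% for Ddit3, 11.6% for Trib3 and 80.0% for Asns.

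**Figure D1:**
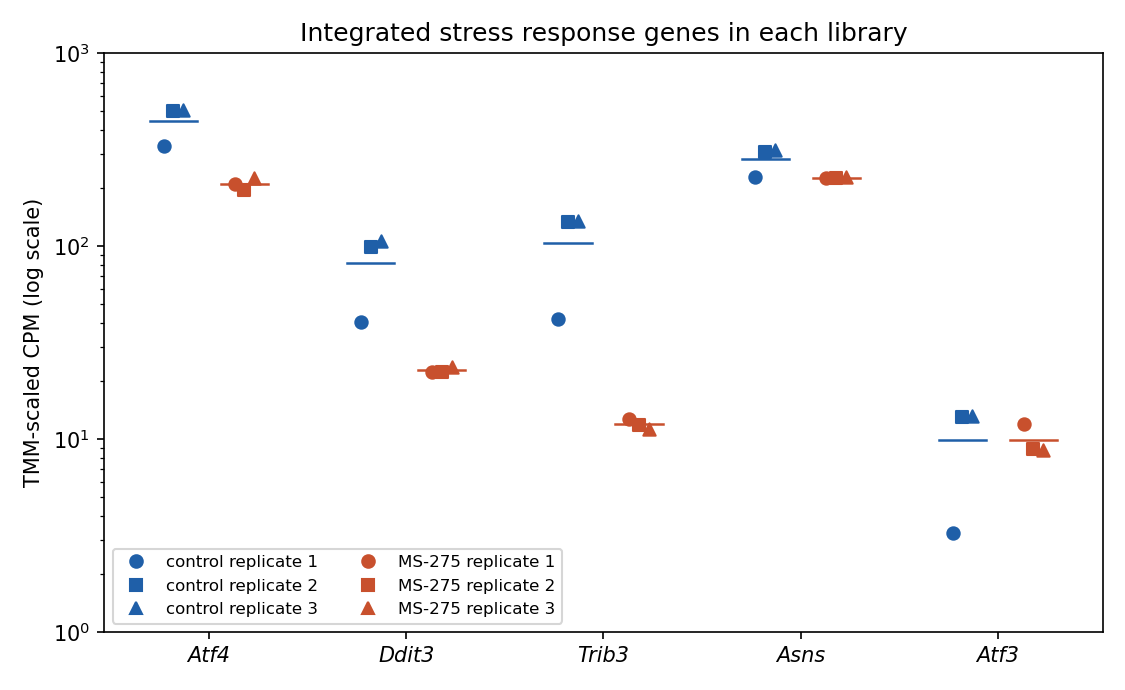
TMM-scaled CPM (log axis) of the 5 genes in each of the 3 control and 3 MS-275 libraries, with a bar at the mean of each group; heights of different genes are not corrected for gene length. Control replicate 1 (blue circle) lies under the other two controls in every gene, and the MS-275 libraries of Trib3 lie between 11.3 and 12.7 CPM.

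Atf4, the central transcription factor, had 331, 499 and 505 CPM in control replicates 1, 2 and 3, from 2630, 4060 and 2919 counts. With MS-275 it had 209, 196 and 225 CPM in replicates 1, 2 and 3. The groups did not overlap, and 106 CPM lay between the lowest control and the highest treated library. The control mean was 445 ± 98.8 CPM and the MS-275 mean was 210 ± 14.7 CPM (SD, n = 3 each). The log2 fold change was -1.08 (SE 0.14, adjusted p = 3.38e-05, edgeR's quasi-likelihood test). Atf4 was lower in 3 of 3 treated libraries, and 4.24% of the tested genes had a lower fold change.

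Ddit3 had 40.6, 98.4 and 106 CPM in the controls, from 323, 801 and 615 counts. The treated libraries had 22.2, 22.2 and 23.7 CPM, from 120, 113 and 212 counts. All treated libraries were low and nearly equal, whereas control replicate 1 stood closer to them than to the other controls. The control mean was 81.8 ± 35.9 CPM and the MS-275 mean was 22.7 ± 0.886 CPM (SD, n = 3 each). The log2 fold change was -1.84 (SE 0.40, adjusted p = 0.00793, edgeR's quasi-likelihood test), and 52 of the tested genes had a lower one. This call did not hold without MS-275 replicate 1 (log2 fold change -1.81, adjusted p = 0.0746 from edgeR) or without MS-275 replicate 3 (-1.87, adjusted p = 0.0764 from edgeR). Over all alternatives the adjusted p of Ddit3 in edgeR or DESeq2 was between 2.24e-09 and 0.0764, and its log2 fold change between -2.16 and -1.61.

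Trib3 had 332, 1083 and 774 counts in control replicates 1, 2 and 3, which were 41.8, 133 and 134 CPM. In the treated libraries it had 69, 60 and 101 counts, which were 12.7, 11.8 and 11.3 CPM. Control replicates 2 and 3 nearly coincided, replicate 1 was far below them, and all treated libraries were lower still. The control mean was 103 ± 53.0 CPM and the MS-275 mean was 11.9 ± 0.741 CPM (SD, n = 3 each), a ratio of 8.62 between control and treated, and the log2 fold change was -3.11 (SE 0.59). These values chose the gene and are given as a description. No tested gene had a lower fold change, and the next lowest, of genes that averaged 1 CPM or more, passed the test and had no overlap, was -2.95 (SE 0.58) for ENSRNOG00000014387, which has no name here.

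Asns, the enzyme of the group, had 227, 307 and 314 CPM in the controls and 226, 226 and 227 CPM with MS-275. Control replicate 1 was at the level of the treated libraries, 0.61 CPM above the highest of them, so the absence of overlap rests on a gap far smaller than the spread of the controls. The control mean was 283 ± 48.2 CPM and the MS-275 mean was 226 ± 0.475 CPM (SD, n = 3 each). The log2 fold change was -0.32 (SE 0.10, 95% interval -0.54 to -0.10, adjusted p = 0.0149, edgeR's quasi-likelihood test). Fold changes lower than this one were found for 30.4% of the tested genes. The test was not passed with upper-quartile scaling (adjusted p = 0.0608 from edgeR) or without control replicate 2, control replicate 3 or MS-275 replicate 2 (adjusted p = 0.0829, 0.0822 and 0.0564 from edgeR), over a range of 0.00016 to 0.0829 in all alternatives.

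Atf3 had the fewest counts of the 5 genes, 26, 106 and 76 in the controls and 65, 45 and 78 with MS-275. These were 3.27, 13.0 and 13.2 CPM in the controls and 12.0, 8.83 and 8.72 CPM in the treated libraries. The treated libraries lay inside the range of the controls, since control replicate 1 was lower and the other two controls were higher than all of them. The control mean was 9.82 ± 5.67 CPM and the MS-275 mean was 9.85 ± 1.87 CPM (SD, n = 3 each). The log2 fold change was 0.02 (SE 0.43, adjusted p = 0.977, edgeR's quasi-likelihood test), and its 95% interval reached from -0.97 to 1.00. A change within this interval was not detectable in these libraries. Without control replicate 1 the value was -0.42 (adjusted p = 0.0778 from edgeR, within a range of 0.0778 to 0.996 over the alternatives).

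**Figure D2:**
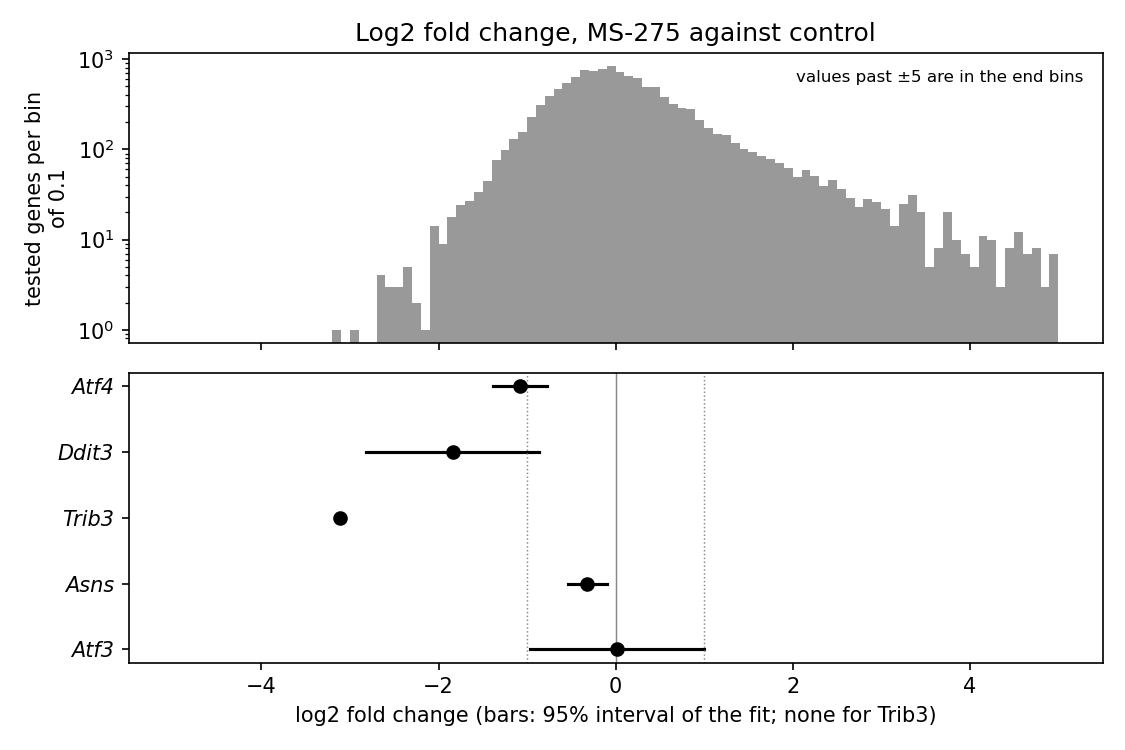
Top, number of tested genes (log axis) by log2 fold change of MS-275 against control in bins of 0.1; bottom, the log2 fold change of the 5 genes with its 95% interval, dotted lines at -1 and 1. Trib3, which was chosen for its value of -3.11 and is drawn without an interval, lies at the lower end of the distribution, Atf4 (-1.08) and Ddit3 (-1.84) lie in its lower tail, and Asns (-0.32) and Atf3 (0.02) lie in its bulk.

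Exact permutation tests of Atf4, Ddit3 and Asns on log2 CPM each gave a two-sided p = 0.1, the smallest that 3 libraries against 3 allow, and Atf3 gave p = 1 in the same exact test. The median log2 fold change of all tested genes was -0.01, against -0.08 without TMM and 0.08 after upper-quartile scaling.

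Counts of Ddit3, Asns and Atf3 were also set against Atf4 within each library, a measure that does not depend on the scaling between libraries. For each 100 counts of Atf4 there were 12.3, 19.7 and 21.1 counts of Ddit3 in the controls and 10.6, 11.4 and 10.6 with MS-275, so the ratio was lower in every treated library than in any control. The mean log2 ratio of the controls was -2.54 ± 0.42 and that of the treated libraries -3.20 ± 0.06 (SD, n = 3 each), a difference of -0.67. For Asns there were 68.7, 61.6 and 62.2 counts per 100 of Atf4 in the controls and 108.1, 115.4 and 100.8 with MS-275. The Asns ratio was thus higher in every treated library, by 0.75 on the log2 scale. For Atf3 there were 1.0, 2.6 and 2.6 counts per 100 of Atf4 in the controls and 5.8, 4.6 and 3.9 with MS-275, a difference of 1.30 on the log2 scale. In these 3 ratios the groups did not overlap. The share of all tested genes without overlap in such a ratio was not counted. Each gave p = 0.1 in a two-sided exact permutation test, also after adjustment over the 3, which is the smallest p the design allows. Atf4 itself was lower with MS-275 (log2 fold change -1.08), so a gene with no change of its own has a higher ratio to it. The higher ratios of Asns and Atf3 thus include the decrease of Atf4. For Trib3, given without a test, the counts per 100 of Atf4 were 12.6, 26.7 and 26.5 in the controls and 6.1, 6.1 and 5.0 with MS-275.

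The controls differed from each other in all 5 genes and in the same direction. The control values also enter the fold changes, including the one that chose Trib3, so they are given here as a description. Control replicate 1 was the lowest control in each of them, as it was in 39.8% of the 9919 tested genes that averaged 10 CPM or more. It held 65.9% of the mean of the other two controls for Atf4, 39.7% for Ddit3, 31.3% for Trib3, 73.2% for Asns and 25.0% for Atf3. A level of 50% or less was found in 6 of the 9919 genes (0.0605%), of which 2 were Trib3 and Ddit3. Atf3 was outside this count because its mean over the 6 libraries was under 10 CPM.

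**Figure D3:**
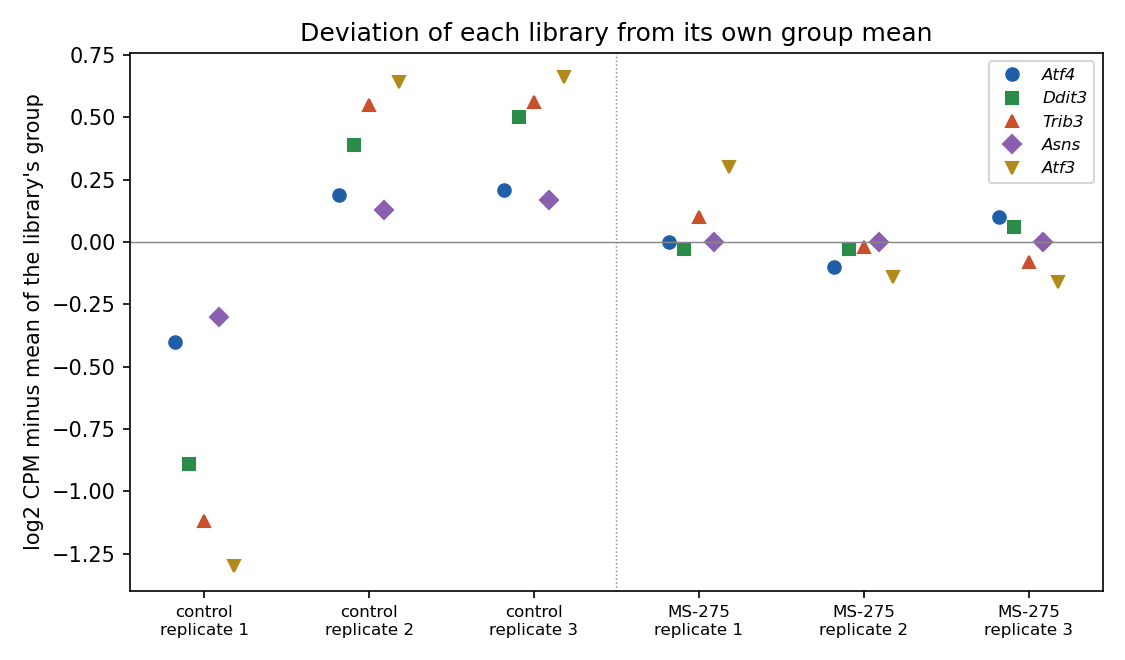
Log2 CPM of each gene in each library minus the mean of that library's group (controls left of the dotted line, MS-275 right). All 5 genes were low in control replicate 1, from -0.30 (Asns) to -1.30 (Atf3), and high in the other two controls, while the MS-275 libraries stayed between -0.16 and 0.30.

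In genes lowered by MS-275, control replicate 1 as a whole stood somewhat toward the treated libraries. Over the 650 genes past both thresholds it lay a median of 11.7% of the way from the mean of the other two controls to the treated mean (quartiles -2.27% and 25.0%). For Atf4 it lay 58.6% of the way, for Ddit3 77.5% and for Trib3 75.5%. Smaller values were found in 97.2% of the 650 genes for Atf4 and in 99.5% for Ddit3. Asns and Atf3 are not among the 650, and the library lay 98.8% of the way for Asns and 303% for Atf3, beyond the treated mean. The cause of this position was not tested. Its depth, 7700713 counts, was inside the range of the controls, and 31.4% of its alignments were on genes, against 30.7% and 31.0% in the other two.

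Without control replicate 1 the log2 fold changes were -1.25 for Atf4, -2.16 for Ddit3, -3.49 for Trib3 and -0.45 for Asns, each larger in size than with all libraries. The adjusted p of Atf4, Ddit3 and Asns in that edgeR fit was 2.35e-08, 2.24e-09 and 0.00016. As this library was the lowest control in each of these genes, leaving it out could only raise the control mean. The larger fold changes and smaller p-values are therefore a description and add no support.

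The spread within a group was accordingly large in the controls and, for all genes but Atf3, under that of the median gene with MS-275. The coefficient of variation over the 3 controls was 22.2% for Atf4, 43.9% for Ddit3, 51.5% for Trib3, 17.0% for Asns and 57.7% for Atf3, against a median of 7.06% for genes that averaged 10 CPM or more. The control value of Ddit3 was above that of 99.5% of these genes. With MS-275 it was 6.99% for Atf4, 3.91% for Ddit3, 6.21% for Trib3, 0.21% for Asns and 19.0% for Atf3, against a median of 9.01%. Counting error alone would give 2.61% for Asns, 8.21% for Ddit3 and 11.4% for Trib3 with MS-275, so these treated libraries were closer together than the counts can resolve. For Atf3 with MS-275 it would give 12.6%, against 19.0% observed. Atf3 averaged under 10 CPM and is not among the genes behind the medians. In the controls counting error would give 12.0% for Atf3 and 4.15% or less for the other genes, well under the observed spread.

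**Figure D4:**
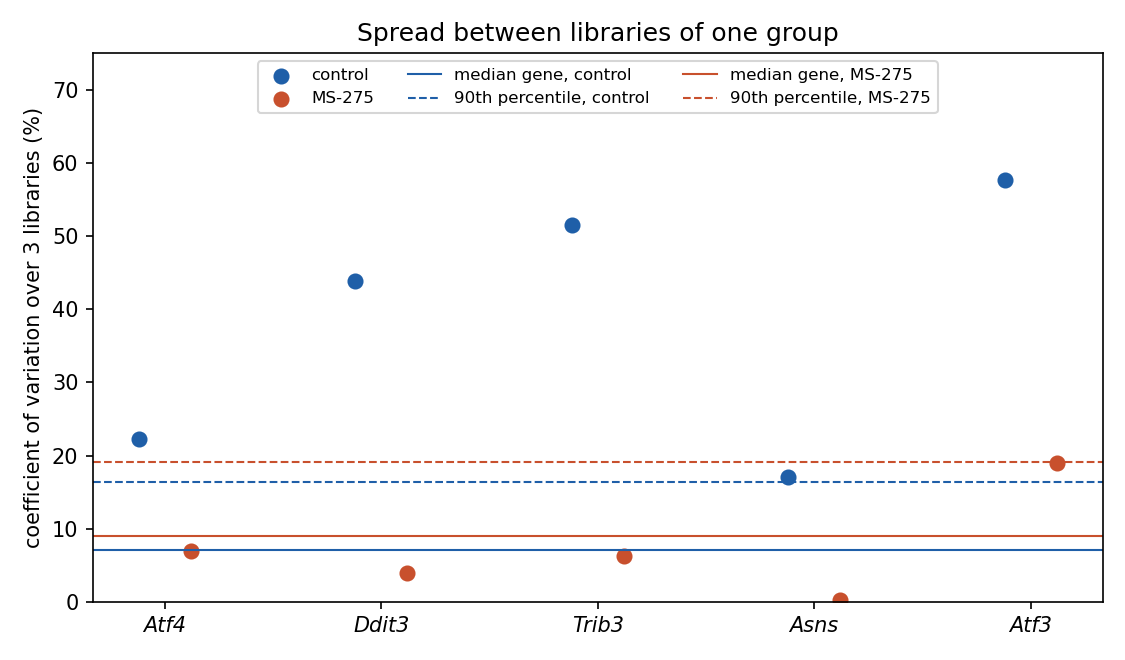
Coefficient of variation (%) over the 3 libraries of a group for each of the 5 genes (blue, control; orange, MS-275), with lines at the median and the 90th percentile of genes that averaged 10 CPM or more. In the controls all 5 genes lie above the 90th percentile (16.4%), and with MS-275 4 of them lie under the median of 9.01%. Atf3, which averaged under 10 CPM and is not among the genes behind the lines, is at 19.0% with MS-275.

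Across the 6 libraries the log2 CPM of Trib3 ran most closely with ENSRNOG00000014373, which has no name here and had a mean of 47.2 CPM in the controls and 21.9 with MS-275 (Pearson r rounds to 1 over 6 libraries). Atf4 and Ddit3 each had r = 0.99 with Trib3, Asns 0.92 and Atf3 0.19. The points share the division into groups, and 19.7% of the 9919 genes had an r over 0.9 with Trib3. For deviations from the group means, in which that division is removed, r was 0.95 for Atf4 and 0.99 for each of Ddit3, Asns and Atf3, a level over 0.9 that 2.29% of the genes reached. These deviations are carried mostly by control replicate 1, and they are given as a description over 6 libraries.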

How the data were processed

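RNA from 3 control and 3 MS-275-treated BRIN-BD11 cultures (150 ng, 12 PCR cycles) was sequenced. Per the paper's methods, reads from contaminants were removed with bowtie2 and STAR placed the others on Rnor_6.0. The authors deposited raw counts of reads per gene. The methods name featureCounts, but each table ends in 5 summary lines of the kind htseq-count writes. These lines were not used as genes and held between 68.6% and 70.8% of the entries. Alignments that matched no annotated feature were between 60.2% and 61.9% of the entries. The submitters' processing notes list Trimmomatic 0.36v and STAR 0.27v. The strand setting and annotation release are not given in the sources used here, so overlapping and antisense reads cannot be told apart. A deposited table of the authors' own comparison (group means, fold changes, p-values) was not used.

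Genes that passed filterByExpr were scaled by TMM and tested with edgeR 4.0.16 (glmQLFit with robust estimation, glmQLFTest, R 4.3.3) without a block. The SE is the size of the log2 fold change divided by the square root of F, and 95% intervals use the degrees of freedom of the fit. Ratios within a library used counts plus 0.5. The script was run on simulated counts in which all genes had the same spread beyond counting error and no control stood apart. That run does not show how calls behave in genes such as these. Alternatives were DESeq2 1.42.0, library sizes alone, upper-quartile scaling, other low-count filters, a replicate block, leaving out each library and a threshold of 0.5. Named genes are the 5 members, the next largest decrease and the gene most like Trib3. The genes, lists and tests were chosen with earlier results of these data known. Lists of further pathway genes and markers were set by symbol and not analysed here, since no table used pairs symbols with the identifiers.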

Additional observations from a re-analysis of the deposited data

How the results depend on the processing

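Atf4 kept its direction and an adjusted p under 0.05 in edgeR and DESeq2 under every alternative, with log2 fold changes between -1.25 and -0.98, but missed the fold change limit of -1 with upper-quartile scaling and without control replicate 2 or 3. Of the 4 genes other than Trib3, 3 were lower at the adjusted p limit, and 2 were with upper-quartile scaling or without any 1 library except control replicate 1. Past both limits there were 2, but 1 with upper-quartile scaling, and between 1 and 2 with each library left out. With each library left out in turn, Ddit3 was between -2.16 and -1.61, Trib3 between -3.49 and -2.87, Asns between -0.45 and -0.24 and Atf3 between -0.42 and 0.32. The lost calls of Ddit3 without MS-275 replicate 1 or 3 and of Asns came in fits with fewer samples, except that of Asns with upper-quartile scaling (-0.23). Other fits of that same size kept the call of Ddit3 (adjusted p between 2.24e-09 and 0.0123 in edgeR). Those without control replicate 1 or MS-275 replicate 1 or 3 kept that of Asns. Atf3 changed sign with library sizes alone (-0.05) and without a low-count filter (-0.01), and without control replicate 1 or MS-275 replicate 1. The cause of these changes was not tested. With a fold change threshold of 0.5 in place of 1, 2498 genes were lower and 3095 higher over all tested genes, since the threshold is laxer. Without TMM the coefficient of variation of Asns with MS-275 was 0.329%, in place of 0.21%, both under counting error. On the forward strand alone 0 of the 4 promoters of these genes held TGATGNAA, against 1 of the 4 on both strands. Of 146 values under alternatives, 127 gave the same direction and call as the values reported, or a count or spread within 1.5 times (a drop from 3 genes to 2 included), or for Trib3 a fold change within 1 SD, of them.

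Deviations of same-numbered libraries correlated at 0.22, -0.03 and 0.20. Libraries with different numbers were not compared in this way, so these values cannot tell whether the replicate numbers pair the libraries. With the replicate number as a block the log2 fold changes were -1.06 for Atf4, -1.79 for Ddit3, -3.05 for Trib3, -0.31 for Asns and 0.07 for Atf3. The block changed no call of these genes. The adjusted p in edgeR with the block was 1.13e-07 for Atf4, 7.35e-05 for Ddit3, 0.00612 for Asns and 0.888 for Atf3, each smaller than without it. With the block, 674 genes were lower and 1763 higher past both thresholds. The alternatives for pathway lists were not run. Depth limits Atf3, with 26 to 106 counts per library.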

Other observations

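Control replicate 1 held 50% or less of the mean of the other two controls in 6 genes that averaged 10 CPM or more, and the 3 genes with the lowest log2 fold changes past the test were all among them. Both measures use the control values. These are Trib3, ENSRNOG00000014387, which was named after its values were seen, and a gene not named here. Their log2 fold changes were -3.11, -2.95 and -2.68. ENSRNOG00000014387 had 29.4, 96.3 and 91.4 CPM in the controls and 9.4, 7.7 and 10.3 CPM with MS-275. Its level in control replicate 1 was 31.4% of that of the other controls, against 31.3% for Trib3.

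Apart from Trib3, 27 genes that averaged 10 CPM or more had a coefficient of variation over the controls at least as large as that of Trib3. In 25 of these the level was higher with MS-275 at an adjusted p under 0.05 in edgeR, and in 23 control replicate 1 was the highest control. In 1 of them control replicate 1 was the lowest, as it was for Trib3. What set this library apart was not tested.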
